A study of Mus musculus with 12 samples.

Results

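PFI-3 was compared with its vehicle, DMSO, in C2C12 cells at 24 h of differentiation. C2C12 is an immortalized mouse myoblast line, a single cell line that proliferates in serum and turns into multinucleated, contractile myotubes when serum is lowered. The comparison used the libraries titled DM 24h PFI3 A and B and DM 24h DMSO A and B, which are 4 of the 12 libraries of the series. All genes entered it. The other 8 libraries hold the same compound and vehicle in proliferating cells (GM, growth medium with 10% fetal bovine serum) and at 48 h of differentiation (DM 48h). For GM cells the labels give 12 h of pretreatment and no renewal, so the length of exposure differed between the stages. Cells of both DM 24h groups were induced at 90% confluence in medium with 2% horse serum and 2 ug/ml insulin. They had received 50 uM PFI-3 or DMSO from 12 h before induction, with renewal every 24 h. The DMSO group differed from the PFI-3 group only in the compound, and the labels name no transgene or deletion in either group. The submitters call the libraries of a group biological duplicates (n = 2 per group). The p-values measure the spread between duplicates, estimated over all 12 libraries in 6 groups. That estimate includes the GM duplicates, which differed more than those at 24 h.

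PFI-3 occupies the acetyl-lysine pocket of a family of bromodomains, the protein modules that read acetylated histones. Its targets are BRM (gene Smarca2) and BRG1 (Smarca4), the alternative ATPases of the SWI/SNF chromatin remodelling complex, and PB1 (Pbrm1), a subunit of one form of that complex. During myoblast differentiation the transcription factors MyoD and myogenin, with MEF2 partners, bind E-boxes and MEF2 sites of muscle genes, and SWI/SNF opens the chromatin at many of these promoters. Cells then leave the cell cycle, switch on the contractile apparatus and fuse, and Notch and Id proteins hold this programme back in proliferating cells.

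The 3 genes for the PFI-3 targets were detected in every library. Smarca4 had 373 and 389 CPM with DMSO and 375 and 360 CPM with PFI-3, with a log2 fold change of -0.05 ± 0.08 (SE) and an adjusted p of 0.669. Pbrm1 had 216 and 214 CPM with DMSO and 183 and 194 CPM with PFI-3 (log2 fold change -0.19 ± 0.09, adjusted p = 0.138). CPM here is the expected count scaled to a common library size with TMM, which rests on the bulk of genes. Smarca2 had 52.7 and 52.6 CPM with DMSO and 74.9 and 81.2 CPM with PFI-3, and its PFI-3 libraries stood above both DMSO libraries (log2 fold change 0.57 ± 0.16, adjusted p = 0.0202). The Smarca2 call was lost on the FPKM scale and without any 1 of the 4 libraries. Per transcript length, the mean levels with DMSO were 60.4 FPKM for Smarca4, 26.7 for Pbrm1 and 12.6 for Smarca2. An inhibitor of protein binding need not change the RNA of its targets, so these values check nothing about its action. Of 26 SWI/SNF subunits tested, 2 were called higher and 4 lower, beside 12.2% and 11.4% of all genes tested; leaving out any 1 of the 4 libraries left 0 higher and 0 or 1 lower.

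The 4 libraries held between 12594103 and 12965360 expected counts each, and 12545 of 16288 listed genes passed the low-count filter. The SD of the log2 ratio of library B to library A was 0.169 with DMSO and 0.167 with PFI-3, against 0.388 and 0.354 in GM. PFI-3 changed 2966 genes (23.6% of those tested) at an adjusted p under 0.05, with 1533 higher (12.2%) and 1433 lower (11.4%). Changes of at least 2-fold were fewer, at 266 genes higher (2.12%) and 307 lower (2.45%). The balance of directions depended on the scale. Of the calls, 51.7% were higher in the count fit, 44.1% with DESeq2 size factors and 62.0% on log2(FPKM + 1), where 1863 genes were higher and 1143 lower. The median log2 fold change of all genes tested was -0.001, -0.031 and 0.036 on these scales. When only the 4 DM 24h libraries were fitted, 5583 genes were called, and when 1 of the 4 was left out, 1320 to 1469. Below, "without any 1 library" means leaving out each of the 4 in turn. Each list described below is set against the shares of 12.2% and 11.4%, and its median against -0.001.

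**Figure D1:**
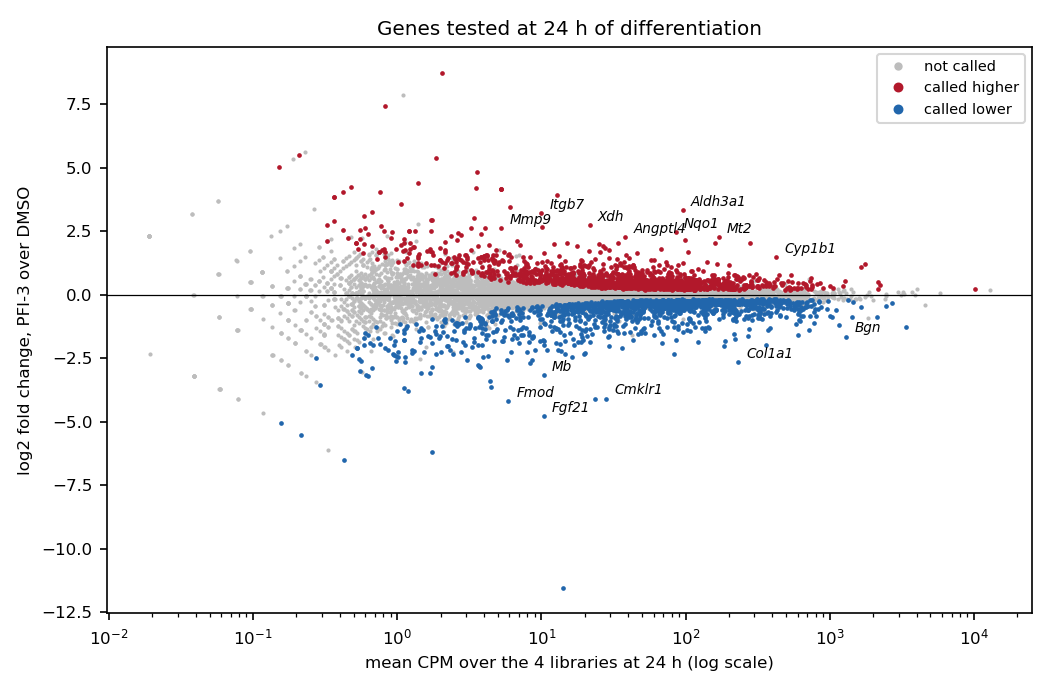
Log2 fold change of PFI-3 over DMSO at 24 h (vertical axis) against the mean CPM of the 4 libraries (horizontal log axis), with 1 point per gene tested. Red points are the 1533 genes called higher and blue points the 1433 called lower; named points include Fgf21 at -4.77 and Aldh3a1 at 3.31.

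The transcription factors that drive muscle differentiation were affected unequally. Myog, which encodes myogenin, had 847 and 838 CPM with DMSO and 412 and 400 CPM with PFI-3 (2.07-fold lower, log2 fold change -1.05 ± 0.08, adjusted p = 2.4e-06). In DMSO cells Myog rose from 0.263 ± 0.15 CPM (mean ± SD, n = 2) in GM. Myod1, the gene for MyoD, had 253 and 273 CPM with DMSO and 208 and 200 CPM with PFI-3, a log2 fold change of -0.36 ± 0.13 that missed the threshold (adjusted p = 0.0574), although its groups did not overlap and it was called in the fits of the DM libraries alone, with DESeq2 and with no filter. Myf5, its close relative, had 42.8 and 39 against 46.6 and 51.3 CPM and was not called either (adjusted p = 0.247). In this short form the first pair of values is DMSO A and B and the second pair PFI-3 A and B.

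Among the MEF2 factors, which bind muscle promoters together with MyoD, Mef2a fell (515 and 527 against 359 and 387 CPM, log2 fold change -0.48 ± 0.07, adjusted p = 0.000384). Mef2d fell with a log2 fold change of -0.38 (adjusted p = 0.00206). Mef2c was called lower too (-2.09), but its level was at most 1.74 CPM in any of the 4 libraries and the call was lost on log2(FPKM + 1) and without DMSO A or either PFI-3 library. Pax7, a factor of muscle stem cells, fell (-0.66), as did Smyd1, a muscle lysine methyltransferase needed for myofibril assembly (32.9 and 29.7 against 10.4 and 9.84 CPM, log2 fold change -1.63 ± 0.12). Eya1, a transcriptional coactivator of myogenic genes, rose (log2 fold change 0.89 ± 0.17, adjusted p = 0.00289). Of 27 listed regulators, 24 were tested, 11 fell, 3 rose and 10 were not called, with a median of -0.25. The number that fell was 6 or 7 without any 1 library.

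**Figure D2:**
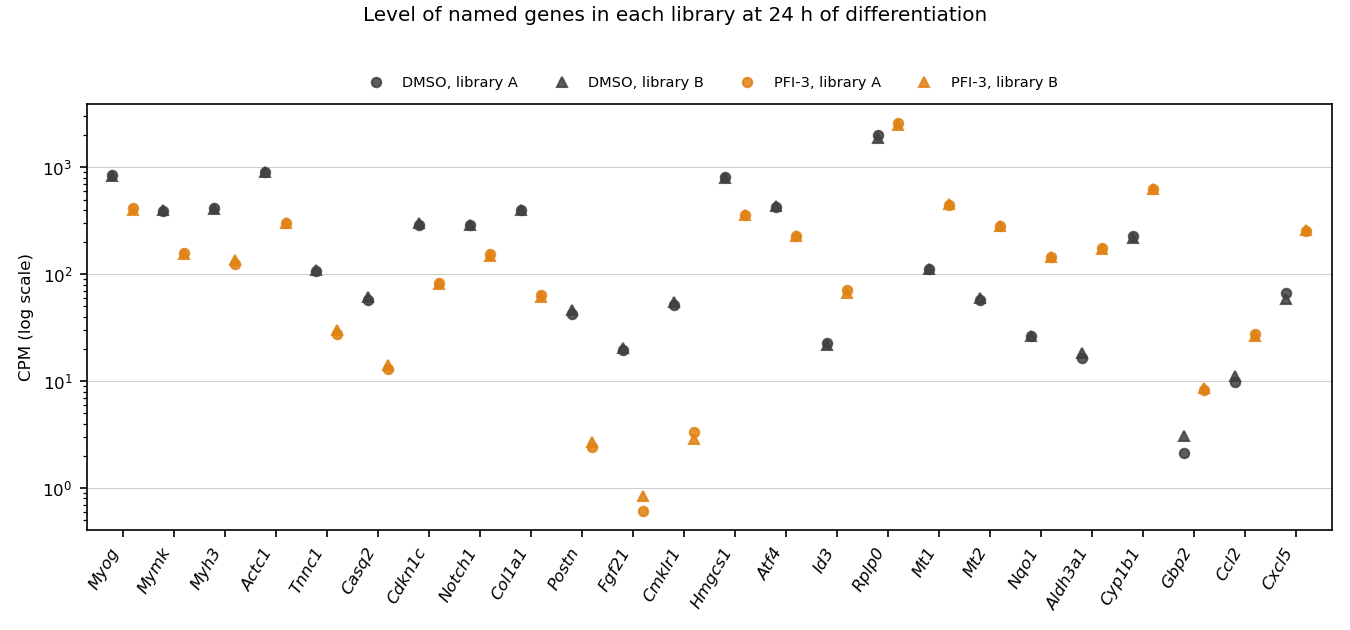
CPM on a log scale (vertical axis) of 24 genes named in the text, in each of the 4 libraries at 24 h. Grey marks DMSO, orange marks PFI-3, circles are library A and triangles library B; the groups do not overlap for any gene shown, and Fgf21 with PFI-3 lies lowest, at 0.609 and 0.839 CPM.

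Most genes of the contractile apparatus fell. In the thick filament, built from myosin heavy and light chains, 15 of 18 tested members fell and none rose, with a median log2 fold change of -1.68. Myh3, the embryonic myosin heavy chain, had 412 and 407 CPM with DMSO and 126 and 137 CPM with PFI-3 (log2 fold change -1.64 ± 0.07, adjusted p = 6.88e-08). Myl4, an embryonic light chain, showed one of the deepest falls of the filament (34.3 and 31.7 against 6.39 and 6.71 CPM, -2.33 ± 0.10), and Mybph, a myosin-binding protein, had 190 and 191 against 51.7 and 53.1 CPM. The treated libraries of all 3 genes lay close together and far under the controls. A further 3 members were listed in the files but stayed under the low-count filter.

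Of 25 thin filament genes tested, 18 fell and none rose, with a median of -1.32. Actc1, the cardiac actin of early myotubes, had 911 and 907 CPM with DMSO and 299 and 299 CPM with PFI-3 (log2 fold change -1.60 ± 0.07, adjusted p = 6.88e-08). Acta1, the skeletal actin, had 545 and 551 against 216 and 223 CPM (-1.32 ± 0.16), Tnnc1, the slow and cardiac calcium-binding troponin, had 108 and 110 against 27.8 and 30.1 CPM (-1.92 ± 0.08), and Tnni1, the slow inhibitory troponin, had 139 and 128 against 38.5 and 39 CPM (-1.78 ± 0.08). Acta1 was 2.5-fold lower and Tnnc1 3.77-fold lower with PFI-3. The tropomyosin Tpm2, with 717 and 751 against 540 and 583 CPM, was not called (adjusted p = 0.117). In bulk RNA, fewer cells that express a gene and less of its RNA per cell cannot be told apart, and this holds for each result here.

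The start regions of Acta1 and Tnni1 are shown because the E-box is the site that MyoD and myogenin bind. Each is the 250 bases before the RefSeq start (the most upstream where there are several) on GRCm38.p6, written along the gene. Capitals mark CAGCTG, 1 form of the E-box (CANNTG, where N is any base), searched on both strands. Other forms were not searched and stand unmarked in these windows. Acta1 lies at chr8:123894776-123895025, minus strand, and Tnni1 at chr1:135799171-135799420, plus strand.
Acta1: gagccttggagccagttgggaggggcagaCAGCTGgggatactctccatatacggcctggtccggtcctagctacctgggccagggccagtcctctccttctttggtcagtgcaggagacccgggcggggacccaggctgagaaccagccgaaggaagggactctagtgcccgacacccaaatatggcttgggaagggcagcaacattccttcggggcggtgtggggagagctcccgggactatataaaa
Tnni1: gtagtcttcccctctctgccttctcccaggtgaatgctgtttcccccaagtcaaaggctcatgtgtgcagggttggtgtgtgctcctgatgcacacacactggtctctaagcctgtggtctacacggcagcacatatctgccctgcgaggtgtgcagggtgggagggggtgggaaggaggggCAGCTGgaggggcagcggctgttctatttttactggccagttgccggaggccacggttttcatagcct
The letters began 221 bases before the start in Acta1 and 68 bases before it in Tnni1. Of 28 listed thin filament genes, 22 had such a window and 9 held the letters in at least 1 window, against 14.72% of 27025 genes. Among those tested, they stood in 6 of 13 members that fell and in 3 of 7 that were not called. A match is a run of letters, not a measured binding site.

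Genes that organise and trigger the sarcomere fell as well. In the Z-disc and M-band, the lattices that anchor thin and thick filaments, 25 of 40 fell and none rose (median -0.65). Ttn, for the giant spring protein titin, had 536 and 539 CPM with DMSO and 215 and 191 CPM with PFI-3 (-1.41 ± 0.09, adjusted p = 9.28e-07), and Actn2, the alpha-actinin of the Z-disc, had 5.87 and 6.73 against 0.761 and 1.07 CPM (-2.77 ± 0.23). Myom2, an M-band protein, had 68.5 and 65.2 against 19.2 and 19.8 CPM. In all 3 sarcomere lists, edgeR found 0 members higher also at an unadjusted p under 0.05, and DESeq2 and limma called 0 higher. Des, for the intermediate filament desmin, stayed under the threshold with 816 and 790 against 690 and 688 CPM (adjusted p = 0.0897).

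Among genes of excitation-contraction coupling, the chain from membrane depolarisation to calcium release, 18 of 40 fell and 3 rose. Cacna1s, the voltage sensor of the calcium release unit, had 25.9 and 23.2 against 4.26 and 5.42 CPM (-2.34 ± 0.15, adjusted p = 2.11e-06), and Casq2, a calcium store protein, had 57.4 and 61.3 against 12.9 and 14.3 CPM (-2.12 ± 0.12). Ryr1, the release channel itself, fell less (124 and 131 against 89.6 and 89.2 CPM, -0.51 ± 0.09). Cacnb3, a calcium channel subunit that is not typical of muscle, rose (79 and 83 against 130 and 123 CPM, 0.64 ± 0.09).

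At the neuromuscular junction, 10 of 23 genes fell and 2 rose. The acetylcholine receptor subunits Chrnb1 (141 and 141 against 65.4 and 62.8 CPM, -1.14 ± 0.07) and Chrng, the embryonic subunit (132 and 131 against 82.6 and 86.6 CPM, -0.64 ± 0.09), fell, whereas the receptor-clustering kinase gene Musk had 53.9 and 59.5 against 61 and 57.1 CPM and was not called (adjusted p = 0.766). Lamb2, a laminin of the synaptic basal lamina, rose (0.47, adjusted p = 0.00154). In the dystrophin complex and sarcolemma, 12 of 30 tested genes fell and 5 rose. Dmd, the gene for dystrophin itself, had 0 counts in all 4 libraries and was not tested. Sgca, a sarcoglycan, fell (30.0 and 28.9 against 11.2 and 10.8 CPM), and so did Trim72, a membrane repair protein (11.7 and 14 against 4.41 and 2.67 CPM). The syntrophin genes Sntb1 (-1.19 ± 0.10) and Sntb2 (0.95 ± 0.09) moved in opposite directions. Only 1 or 2 of the 5 rises of this list were called without any 1 library.

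The genes whose products merge membranes fell. Mymk (myomaker), which with Mymx (myomixer) merges myoblast membranes, had 390 and 403 CPM with DMSO and 157 and 154 CPM with PFI-3 (2.55-fold lower, log2 fold change -1.35 ± 0.09, adjusted p = 1.67e-06). Mymx had 44.5 and 45.6 against 19 and 19.1 CPM (-1.24 ± 0.08). Cdh15, the muscle cadherin, had 639 and 661 against 356 and 339 CPM (-0.90 ± 0.11), and Adam12, a protease of fusing myoblasts, had 71.4 and 74.8 against 28.9 and 29.7 CPM (-1.32 ± 0.23). Over the whole list, 14 of 41 tested genes fell and 6 rose, with a median of -0.14. Without any 1 library, 8 to 10 fell and 1 to 3 rose.

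Genes of muscle energy supply were split, with 10 of 41 lower and 7 higher. Without any 1 library 4 were higher, and in the fits of DM libraries alone 16 or 17 were higher and 11 or 12 lower, which turns the balance. Ckm, the muscle creatine kinase that buffers ATP, had 74.6 and 71.7 CPM with DMSO and 28.8 and 28 CPM with PFI-3 (-1.36 ± 0.11, adjusted p = 6.4e-06). Mb, for the oxygen carrier myoglobin, was among the 12 deepest falls of all genes (18.5 and 18.8 against 1.75 and 2.36 CPM, -3.17 ± 0.18), and Pygm, the muscle glycogen phosphorylase, fell too (-1.04). Hk2, a hexokinase, rose (35.1 and 36.8 against 59.2 and 64.7 CPM, 0.78 ± 0.12), as did Ampd3, an AMP deaminase (38.3 and 37.9 against 80.7 and 81 CPM, 1.08 ± 0.08). Of 76 respiratory chain and ATP synthase genes, 7 fell and 1 rose, shares under those of all genes; 1 or 2 fell without any 1 library, and 18 to 20 fell and 8 or 9 rose in the fits of DM libraries alone.

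**Figure D3:**
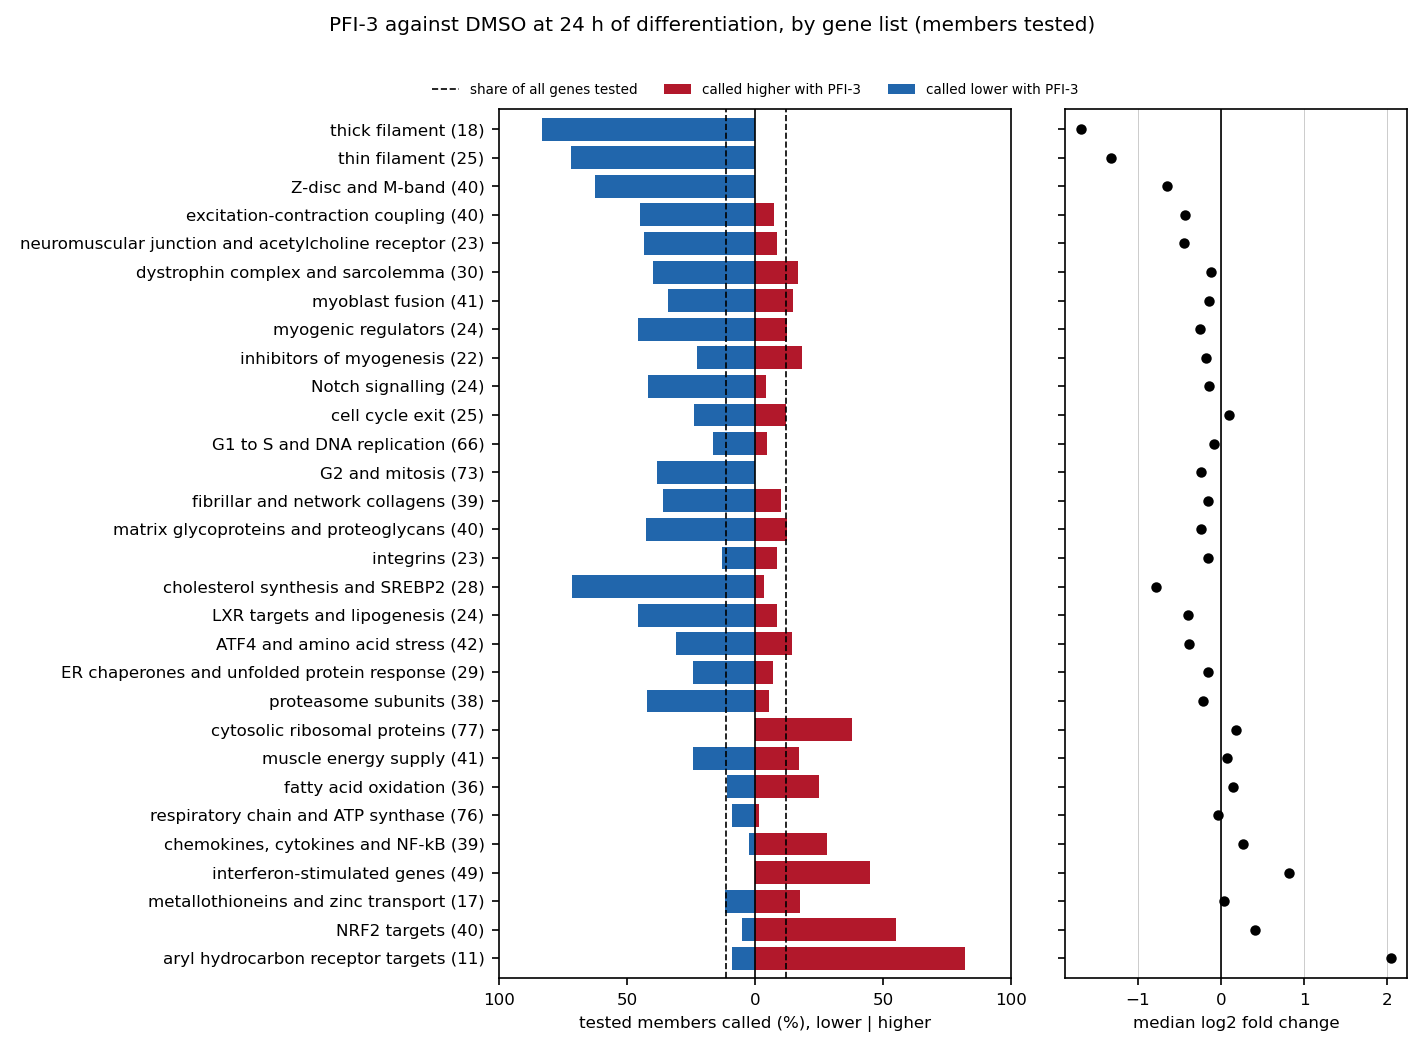
Left: the share of tested members of 30 gene lists (number tested in brackets) called lower (blue, to the left) or higher (red, to the right) with PFI-3 at 24 h, with dashed lines at the shares of all genes tested, 11.4% and 12.2%. Right: the median log2 fold change of the same members, which runs from -1.68 in the thick filament to 2.05 among aryl hydrocarbon receptor targets.

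Markers of other lineages were set beside these falls. Of 10 listed smooth muscle markers, 8 were tested and edgeR called 0 (23.6% of all genes were called), with 6 lower at an unadjusted p under 0.05, 2 called lower by DESeq2's Wald test and 1 by limma on log2(FPKM + 0.1). All 8 (median -0.74) were called lower when only the DM 24h libraries or only the 8 DM libraries were fitted. In those fits, 2756 of 12016 and 2695 of 12371 genes tested were called lower. The list holds Des, which is also a skeletal muscle gene. The summed level of the list was 3600 and 3610 CPM with DMSO and 2240 and 2290 CPM with PFI-3. Acta2, which carries most of that sum, had 2410 and 2430 against 1270 and 1310 CPM (adjusted p = 0.0582) and was called in the fits of the DM libraries alone, with the replicate block and with no filter. Myh11, the defining smooth muscle myosin, was at or under 0.0793 CPM. The adipocyte list had 3 of 6 genes tested and 2 called higher (0 or 1 without any 1 library), at summed levels of 15.8 and 16.1 CPM with DMSO and 30.4 and 32 CPM with PFI-3; Cebpa, a fat cell transcription factor, had 11.3 and 10.7 against 18 and 21.3 CPM, a call lost on the FPKM scale and without any 1 library. Adipoq, which defines fat cells, was at 0 in all 4 libraries and Fabp4 at or under 0.0774 CPM. The osteoblast list had 5 of 8 genes tested, with 2 called higher and 1 lower and log2 fold changes from -1.79 to 2.2. It summed to 887 and 862 CPM with DMSO and 907 and 950 CPM with PFI-3. Its defining genes Sp7, Alpl and Bglap were at or under 0.457 CPM. The cartilage and tendon list summed to 183 to 186 CPM in all 4 libraries. Of its 5 tested genes, 1 was called lower (0 with the replicate block) and 0 higher. The blood, endothelial and neuronal list summed to 27.3 and 25.6 CPM with DMSO and 12.6 and 11.8 CPM with PFI-3, nearly all of it Tubb3, a neuronal tubulin (-1.50 ± 0.16), while Ptprc and Pecam1 were at or under 0.159 CPM. The part of the smooth muscle, adipocyte and tubulin genes in the other results was not tested.

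Genes that restrain differentiation did not move together. Of 22 tested, 5 were called lower, among them Hes1 and Hey1 described below, and 4 higher, with a median of -0.18. In the fits of DM libraries alone, 8 fell and 6 rose. Id3, an Id protein that traps the partners of MyoD, had 22.7 and 21.9 CPM with DMSO and 71.3 and 67.4 CPM with PFI-3 (3.11-fold higher, log2 fold change 1.64 ± 0.16, adjusted p = 2.19e-05). Id1 (17.1 and 14.5 against 20.7 and 19.4 CPM) and Id2 (17.8 and 19.8 against 28.6 and 31.6 CPM) lay higher in both treated libraries but narrowly missed the threshold (adjusted p = 0.0503 and 0.0523). The level of Id3 in GM with DMSO was 243 ± 7.86 CPM (mean ± SD, n = 2). Twist2, a basic helix-loop-helix repressor of muscle genes, rose (0.86), a call lost without either A library.

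Notch pathway genes fell more often than they rose. Signals from a ligand on the neighbouring cell release the Notch receptor's intracellular part, which switches on Hes and Hey repressors. The receptor gene Notch1 had 289 and 287 CPM with DMSO and 156 and 148 CPM with PFI-3 (-0.92 ± 0.11, adjusted p = 9.27e-05). Dll1, a ligand, had 120 and 114 against 76 and 77.4 CPM (-0.61 ± 0.08), while the ligand gene Jag1 was not called (16.7 and 16.9 against 14.1 and 13.8 CPM, adjusted p = 0.474). The target genes Heyl (145 and 150 against 54.9 and 57.8 CPM, -1.39 ± 0.14), Hey1 (-1.21) and Hes1 (77.3 and 75 against 46.5 and 42.3 CPM, -0.78 ± 0.13) all fell. Of 24 tested Notch genes, 10 fell and 1 rose. Heyl, Dll1 and Notch1 had themselves been induced by differentiation in DMSO cells, by 8.43, 5.56 and 2.19 on the log2 scale. That comparison shares the DMSO libraries with this one.

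Genes that act in cell cycle exit changed in both directions. Cdkn1c, the inhibitor p57, had 286 and 300 CPM with DMSO and 82.9 and 81.1 CPM with PFI-3 (3.57-fold lower, log2 fold change -1.84 ± 0.12, adjusted p = 9.99e-07), and Cdkn1a, the inhibitor p21, had 723 and 781 against 465 and 480 CPM (-0.67 ± 0.11). Rb1, the pocket protein that silences E2F targets, had 162 and 168 against 101 and 102 CPM (-0.70 ± 0.07), and Ccnd3, the cyclin that persists in myotubes, had a smaller change (-0.36, adjusted p = 0.00447, not called without PFI-3 B). Cdkn1b, the inhibitor p27, rose (58.7 and 61.8 against 83.6 and 80.2 CPM), a call lost without any 1 library. Over the exit list, 6 of 25 fell, 3 rose and 16 were not called, with a median of 0.10. Without any 1 library, 4 or 5 fell and 0 or 1 rose, and in the fits of DM libraries alone 8 fell and 9 rose.

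Genes that carry out the cycle were mostly lower or not called at this time. Of 73 genes of G2 and mitosis, 28 fell and none rose, with a median of -0.24 (0 rose at an unadjusted p under 0.05 either, or by DESeq2 or limma). Mki67, the proliferation marker, had 739 and 740 CPM with DMSO and 511 and 538 CPM with PFI-3 (-0.50 ± 0.08, adjusted p = 0.00117), Ccna2, cyclin A2, had 315 and 323 against 234 and 242 CPM (-0.42 ± 0.08), and Melk, a mitotic kinase, fell (-0.45). Cdk1 itself had 128 and 126 against 131 and 128 CPM (adjusted p = 0.825). Of 66 genes of G1 to S and DNA replication, 11 fell and 3 rose (median -0.08); 3 to 5 fell without any 1 library, 7 on the FPKM scales and 18 in the fits of DM libraries alone. The replication clamp gene Pcna had 203 and 205 against 206 and 206 CPM (adjusted p = 0.913). Ccnd2, cyclin D2, was the exception in size, with 12.3 and 12.2 against 38.5 and 39.3 CPM (1.67 ± 0.15, adjusted p = 1.29e-05). The number of mitotic genes that fell was 9 to 14 without any 1 library and 52 to 55 in the fits of DM libraries alone. The letters TTTGAA, a cell cycle element searched on both strands, stood within 250 bases of the start in 24 of 60 matched mitotic genes, against 18.26% of all genes, in 10 of the 23 that fell and in 14 of the 37 that were not called.

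Secreted growth factors and their modulators changed in both directions. Igf2, the growth factor that myoblasts make to drive their own differentiation, had 143 and 145 CPM with DMSO and 68 and 71.5 CPM with PFI-3 (-1.04 ± 0.08, adjusted p = 5.4e-06). Igfbp2, one of its binding proteins, fell (171 and 187 against 94.4 and 96.8 CPM), and Igf1r, the receptor, had 83.5 and 82.4 against 88.3 and 81.7 CPM and was not called (adjusted p = 0.811). Fst, for follistatin, an antagonist of activin and myostatin, fell (32.6 and 33.7 against 14.2 and 13.5 CPM, -1.26 ± 0.16), as did Tgfb2 (111 and 113 against 67.6 and 71.4 CPM; not called without PFI-3 A). Grem1, a BMP antagonist, rose (75.3 and 75.6 against 140 and 143 CPM, 0.91 ± 0.08), and so did Fgf7 (13.6 and 13.3 against 39.9 and 50.6 CPM, 1.75 ± 0.24) and Pdgfra, a receptor of mesenchymal progenitors (12 and 11.1 against 25.9 and 25.1 CPM, 1.14 ± 0.21). Among 40 FGF, EGF and PDGF genes, 12 fell and 4 rose; among 49 TGF-beta, activin and BMP genes, 6 fell and 9 rose; and among 37 genes of insulin-like growth factor and insulin signalling, 7 fell and 5 rose. These counts depended on the fit. Without any 1 library, 5 to 7 FGF, EGF and PDGF genes fell and 3 rose, 2 to 4 TGF-beta, activin and BMP genes fell and 3 to 5 rose, and 3 or 4 genes of insulin-like growth factor signalling fell and 1 to 3 rose. In the fits of DM libraries alone, 16 or 17 TGF-beta, activin and BMP genes fell and 15 or 16 rose, so the balance of that list turned.

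Matrix genes held several of the deepest falls. Col1a1, the alpha 1 chain of type I collagen, had 399 and 396 CPM with DMSO and 63.8 and 61.3 CPM with PFI-3 (6.35-fold lower, log2 fold change -2.67 ± 0.07, adjusted p = 6.07e-10). Its partner chain Col1a2 fell less (1860 and 1830 against 1030 and 979 CPM, -0.88 ± 0.16). Col5a3, a type V chain, had 139 and 141 against 29 and 26.1 CPM (-2.34 ± 0.16), while Col3a1 had 3300 and 3180 against 3310 and 3260 CPM and did not change detectably (0.02 ± 0.15, adjusted p = 0.943). Of 39 collagen genes and collagen-modifying enzymes tested, 14 fell and 4 rose (1 to 3 rose without any 1 library, and 10 in the fits of DM libraries alone); P4ha3, a prolyl hydroxylase, was among the rises (1.01; not called without DMSO B).

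Matrix glycoproteins followed the same pattern, with 17 of 40 lower and 5 higher (9 to 11 lower and 2 or 3 higher without any 1 library, 10 higher in the fits of DM libraries alone). Postn (periostin) had 42.6 and 46.4 CPM with DMSO and 2.43 and 2.67 CPM with PFI-3 (17.4-fold lower, -4.12 ± 0.20, adjusted p = 9.96e-08). The small leucine-rich proteoglycans, which coat collagen fibrils, differed: Fmod (12.3 and 10.1 against 0.609 and 0.61 CPM), Aspn (14.5 and 15 against 2.36 and 2.59 CPM) and Bgn (1960 and 1970 against 611 and 638 CPM, -1.65 ± 0.07) fell, and Dcn had 12.5 and 13.2 against 12.4 and 14.3 CPM (adjusted p = 0.895). Fmod and Aspn rest on few counts with PFI-3, at no more than 2.59 CPM. Among proteases, Mmp9, a gelatinase, rose from low levels (1.59 and 1.32 against 8.6 and 9.46 CPM, 2.63 ± 0.28), whereas Mmp2 had 376 and 387 against 392 and 375 CPM (adjusted p = 0.975). Among integrins, Itga7, the laminin receptor of muscle, fell (679 and 684 against 453 and 440 CPM, -0.61 ± 0.06) and Itgb7, a leukocyte subunit, rose (1.9 and 2.01 against 19.4 and 16.7 CPM, 3.20 ± 0.25).

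Many genes of sterol and fatty acid synthesis fell. In the cholesterol pathway, which the transcription factor SREBP2 switches on when sterols are short, 20 of 28 tested genes fell and 1 rose, with a median of -0.78. Hmgcs1, the first committed enzyme, had 812 and 788 CPM with DMSO and 361 and 362 CPM with PFI-3 (-1.15 ± 0.31, adjusted p = 0.0202). Pmvk, which phosphorylates mevalonate, had 45.7 and 45.2 against 17.3 and 17.5 CPM (-1.38 ± 0.16, adjusted p = 8.71e-05), and Lss, which closes the sterol ring, had 202 and 206 against 83.5 and 84.7 CPM (-1.28 ± 0.24). Scap, the sterol sensor that escorts SREBP, was the gene that rose (76.2 and 73.3 against 115 and 106 CPM, 0.57 ± 0.08). Inside the 4 libraries the groups were far apart, but the count depended on the fit: 9 members fell on either FPKM scale, 14 by the DESeq2 Wald test, 7 to 9 without any 1 library, and 25 or 26 in the fits of DM libraries alone. The call of Hmgcs1 was among those lost on the FPKM scale and without any 1 library. In GM, Hmgcs1 varied widely between duplicates (126 ± 80.9 CPM with DMSO).

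Fatty acid synthesis is run by SREBP1 and by LXR, the oxysterol receptor. Srebf1, the gene for SREBP1, had 337 and 332 CPM with DMSO and 177 and 169 CPM with PFI-3 (-0.95 ± 0.13, adjusted p = 0.000343). Fasn, fatty acid synthase, had 1280 and 1280 against 746 and 699 CPM (-0.83 ± 0.07), and Acaca, acetyl-CoA carboxylase, had 311 and 291 against 147 and 150 CPM (-1.02 ± 0.07, adjusted p = 1.96e-06). Scd1 fell as well (-1.38), but its expected counts were fractional in all 4 libraries, which marks reads divided between similar sequences. Of 24 LXR and lipogenesis genes, 11 fell and 2 rose, and the same number, 11, fell without any 1 library. Fatty acid oxidation leaned the other way, with 9 of 36 higher and 4 lower (4 to 6 higher and 2 lower without any 1 library, 16 or 17 higher in the fits of DM libraries alone). Log2 fold changes in that list ran from -2.24 to 1.27. Cpt1a, which admits fatty acids to mitochondria, had 79.3 and 86.3 against 198 and 201 CPM (1.27 ± 0.10, adjusted p = 6.58e-06). Outside the list, Angptl4, a lipoprotein lipase inhibitor, had 12.7 and 13.5 against 63.5 and 62.6 CPM (2.26 ± 0.17).

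Among genes of at least 5 CPM on average whose counts were whole numbers, the deepest fall was that of Fgf21, a stress hormone that myocytes make. It had 19.5 and 20.5 CPM with DMSO and 0.609 and 0.839 CPM with PFI-3 (27.6-fold lower, log2 fold change -4.77 ± 0.23, adjusted p = 9.96e-08). Fgf21 is a target of ATF4, the factor that amino acid shortage and other stresses switch on through translation. Atf4 RNA had 428 and 432 CPM with DMSO and 226 and 227 CPM with PFI-3 (-0.93 ± 0.18, adjusted p = 0.00398). The amino acid transporter genes Slc7a1 (103 and 113 against 56.2 and 50.2 CPM, -1.03 ± 0.16) and Slc7a11 (776 and 785 against 566 and 555 CPM, -0.48 ± 0.07) fell, and Chac1, a glutathione-degrading enzyme, had 14.3 and 15.2 against 3.27 and 3.2 CPM (-2.19 ± 0.57), a call lost without any 1 library. The list did not move as one: 13 of 42 fell and 6 rose (median -0.38). Ddit3, another target, had 13.5 and 11.8 against 12.4 and 15.1 CPM (adjusted p = 0.787), and Asns, asparagine synthetase, had 53.5 and 55.8 against 33.4 and 31.7 CPM (adjusted p = 0.0794). Vldlr, a lipoprotein receptor, rose (10.5 and 9.52 against 38.1 and 42.3 CPM, 2.00 ± 0.26), and so did Sesn2, a stress-induced brake on mTORC1 (0.58). The number that fell was 5 or 6 without any 1 library and 26 in the fits of DM libraries alone.

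Fgf21, Chac1 and Slc7a11 are shown with the core letters of the amino acid response element, TTGCATCA, in capitals, because ATF4 dimers bind this element. The windows are again the 250 bases before the RefSeq start on GRCm38.p6. Fgf21 lies at chr7:45615491-45615740, minus strand, Chac1 at chr2:119350992-119351241, plus strand, and Slc7a11 at chr3:50443614-50443863, minus strand.
Fgf21: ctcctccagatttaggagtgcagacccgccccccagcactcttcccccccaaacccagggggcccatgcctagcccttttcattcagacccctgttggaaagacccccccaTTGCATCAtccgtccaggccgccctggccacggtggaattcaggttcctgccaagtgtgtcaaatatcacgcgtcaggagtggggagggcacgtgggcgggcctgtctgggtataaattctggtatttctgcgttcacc
Chac1: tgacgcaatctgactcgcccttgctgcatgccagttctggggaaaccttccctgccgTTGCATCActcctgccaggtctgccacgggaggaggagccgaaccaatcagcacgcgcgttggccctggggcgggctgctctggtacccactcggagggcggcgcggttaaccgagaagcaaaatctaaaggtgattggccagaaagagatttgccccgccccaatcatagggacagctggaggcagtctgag
Slc7a11: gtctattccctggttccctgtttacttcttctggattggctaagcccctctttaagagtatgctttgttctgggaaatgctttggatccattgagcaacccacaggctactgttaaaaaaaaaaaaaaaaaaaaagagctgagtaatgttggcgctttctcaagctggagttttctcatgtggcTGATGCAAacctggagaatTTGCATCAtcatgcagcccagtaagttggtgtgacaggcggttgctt
The letters, searched on both strands, begin 139 bases before the start in Fgf21 and 193 bases before it in Chac1, and Slc7a11 has 2 copies. They stood in 0.92% of all 27025 genes and in 8 of 36 matched genes of the list. By direction, they were in 4 of 11 genes that fell, in 1 of 6 that rose and in 3 of 18 that were not called.

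Some genes for protein folding and breakdown fell slightly, and some for the ribosome rose slightly. In the endoplasmic reticulum, 7 of 29 chaperone and unfolded protein response genes fell and 2 rose; without any 1 library 2 to 4 fell and 0 rose, and in the fits of DM libraries alone 13 fell. Xbp1, a sensor-activated factor, had 131 and 125 against 101 and 94.2 CPM (-0.39 ± 0.09; not called without DMSO A or PFI-3 B), and the chaperone gene Hspa5 had 535 and 509 against 479 and 454 CPM (adjusted p = 0.0992). Of 38 proteasome subunits, 16 fell and 2 rose (7 to 9 fell without any 1 library). Psmd1, a regulatory subunit, had 349 and 333 CPM with DMSO and 236 and 248 CPM with PFI-3 (-0.50 ± 0.06, adjusted p = 0.000136), and Psmd14, a deubiquitinase of the lid, had 94 and 90.6 against 64.5 and 62.6 CPM. Psme1, of the interferon-linked activator ring, rose (33.3 and 37.8 against 47.6 and 49.7 CPM, 0.45 ± 0.09; not called without DMSO A).

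Of 77 cytosolic ribosomal protein genes, 29 rose and none fell (1 at an unadjusted p under 0.05), with a median of 0.18. Rps21 had 144 and 156 CPM with DMSO and 243 and 245 CPM with PFI-3 (0.70 ± 0.08, adjusted p = 0.000117), Rps20 had 425 and 423 against 611 and 610 CPM (0.53 ± 0.07), and Rplp0, of the ribosomal stalk, had 2000 and 1900 against 2600 and 2480 CPM (0.38 ± 0.06). Rps6 and Rpl3 were not called, with 0.09 and 0.04. The list's median lay between 0.15 and 0.23 in the 14 alternatives; it was 0.15 with DESeq2 size factors and 0.23 on log2(FPKM + 1), where the median of all genes was -0.031 and 0.036. The number that rose was 11 or 12 without any 1 library, 24 with DESeq2 size factors (1 fell) and 40 or 42 on the FPKM scales. Ribosomal protein transcripts are short, and of 4 equal classes of genes by transcript length the shortest had a median of 0.024 and the longest -0.025. The part of transcript length was not tested further.

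Genes that respond to foreign compounds rose. The aryl hydrocarbon receptor is a ligand-activated factor for planar aromatic compounds, and its best-known targets are the CYP1 monooxygenases. Of 11 tested targets, 9 rose and 1 fell, with a median of 2.05. Cyp1b1 had 228 and 216 CPM with DMSO and 622 and 624 CPM with PFI-3 (2.81-fold higher, log2 fold change 1.49 ± 0.11, adjusted p = 4.32e-06). Aldh3a1, an aldehyde dehydrogenase, had 16.6 and 18.4 against 176 and 171 CPM (3.31 ± 0.37), Xdh, xanthine dehydrogenase, had 4.99 and 6.27 against 36.3 and 39 CPM (2.74 ± 0.27), and Tiparp, an ADP-ribosylating feedback gene, had 47.5 and 48.3 against 71.3 and 70.4 CPM (0.56 ± 0.09). Cyp1a1, the classical target, reached only 0.159 and 0.0774 against 2.51 and 2.82 CPM, and its call was lost on log2(FPKM + 1) and without any 1 library. Ahr, the gene of the receptor itself, was the member that fell (26.6 and 25.4 against 14.6 and 15.4 CPM, -0.79 ± 0.13). The core letters of the receptor's response element, GCGTG, searched on both strands in the same 250-base windows, stood in 6 of 10 matched members and in 4 of 7 that rose, against 30.85% of all genes.

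NRF2 is the factor that electrophiles and oxidants release to switch on detoxifying enzymes. Of its 40 tested targets, 22 rose and 2 fell (median 0.41). Nqo1, a quinone reductase that both NRF2 and the aryl hydrocarbon receptor control, had 26.6 and 26.2 CPM with DMSO and 144 and 144 CPM with PFI-3 (5.47-fold higher, log2 fold change 2.45 ± 0.16, adjusted p = 1.11e-06). The glutathione transferase genes Gsta4 (36.9 and 36.6 against 159 and 162 CPM, 2.13 ± 0.20) and Mgst1 (3.09 and 2.01 against 11 and 10.9 CPM, 2.10 ± 0.25) rose by similar amounts. Srxn1, sulfiredoxin, had 37.2 and 34.8 against 56.1 and 58 CPM (0.67 ± 0.10), and Txnrd1, thioredoxin reductase, rose less (0.36; not called without PFI-3 A or DMSO B). Hmox1, heme oxygenase, had 49.3 and 48.8 against 66.4 and 67.2 CPM and was not called in this fit (adjusted p = 0.319).

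Metallothioneins, which bind zinc and copper, were higher. Mt1 had 112 and 111 CPM with DMSO and 447 and 454 CPM with PFI-3 (4.04-fold higher, log2 fold change 2.02 ± 0.16, adjusted p = 5.4e-06), and Mt2 had 56.9 and 59.7 against 280 and 283 CPM (4.83-fold higher, 2.27 ± 0.20). Slc30a1, the zinc exporter of the plasma membrane, had 5.07 and 4.72 against 18.9 and 20.4 CPM (2.00 ± 0.14), whereas Slc39a10, a zinc importer, fell (76.3 and 79.7 against 26.1 and 28.7 CPM, -1.51 ± 0.10). The duplicates of these 4 genes differed by little and their groups lay far apart. The other zinc genes of the list were mostly not called: of 17 tested, 3 rose and 2 fell, against 6 and 3 in the fits of DM libraries alone and 3 and 1 without any 1 library.

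The start regions of Mt1 and Mt2 are shown because the zinc-sensing factor MTF1 binds metal response elements there. Capitals mark the letters TGCNCNC (N is any base) on either strand, in the 250 bases before the RefSeq start on GRCm38.p6. This pattern is looser than the metal response element core, which has A or G at the first N. In Mt2, GGGAGCA (read on the other strand) and TGCTCTC have T there and are not that core. Mt1 lies at chr8:94178839-94179088, plus strand, and Mt2 at chr8:94172368-94172617, plus strand.
Mt1: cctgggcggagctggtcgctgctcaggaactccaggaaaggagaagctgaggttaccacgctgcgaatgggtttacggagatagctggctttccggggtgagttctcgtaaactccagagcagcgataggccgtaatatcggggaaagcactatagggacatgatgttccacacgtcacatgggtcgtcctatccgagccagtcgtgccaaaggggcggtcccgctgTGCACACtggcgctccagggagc
Mt2: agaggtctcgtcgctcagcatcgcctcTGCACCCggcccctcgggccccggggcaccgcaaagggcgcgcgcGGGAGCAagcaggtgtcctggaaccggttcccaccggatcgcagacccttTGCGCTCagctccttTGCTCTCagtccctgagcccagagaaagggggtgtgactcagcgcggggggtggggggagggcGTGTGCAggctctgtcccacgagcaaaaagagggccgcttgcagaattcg
Mt2 held 5 matches and Mt1 held 1 in these windows. Bases after the annotated starts were not searched, so these are not counts for the whole promoters. The searched pattern is short, loose and common: 47.2% of all genes and 14 of 18 matched genes of the list had it. Among these were all 3 that rose and 8 of 11 that were not called.

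Many innate immune genes rose. Interferons act through transcription factors that bind the interferon-stimulated response element. Of 49 tested interferon-stimulated genes, 22 rose and none fell, with a median of 0.82 (0 fell at an unadjusted p under 0.05 either, or by DESeq2 or limma). Gbp2, a guanylate-binding protein, had 2.14 and 3.1 CPM with DMSO and 8.22 and 8.54 CPM with PFI-3 (1.67 ± 0.24, adjusted p = 0.000459). H2-D1, a class I histocompatibility gene, had 59 and 57 against 115 and 114 CPM (0.98 ± 0.10), with fractional counts that make its level uncertain. Several of the best-known members lay higher in both treated libraries without being called, such as Ifit1 (3.88 and 3.17 against 10.2 and 10.8 CPM, adjusted p = 0.112) and Isg15 (2.14 and 2.71 against 5.48 and 5.19 CPM, adjusted p = 0.311), which were called in the fits of DM libraries alone. The number that rose was 13 by the DESeq2 Wald test and 8 to 12 without any 1 library.

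Gbp2, which was called, and Ifit1, which was not, both carry the core of the interferon-stimulated response element (GAAA, 2 bases of any kind, then GAAA), shown in capitals on either strand in the 250 bases before the RefSeq start on GRCm38.p6. Gbp2 lies at chr3:142620413-142620662, plus strand, and Ifit1 at chr19:34640639-34640888, plus strand.
Gbp2: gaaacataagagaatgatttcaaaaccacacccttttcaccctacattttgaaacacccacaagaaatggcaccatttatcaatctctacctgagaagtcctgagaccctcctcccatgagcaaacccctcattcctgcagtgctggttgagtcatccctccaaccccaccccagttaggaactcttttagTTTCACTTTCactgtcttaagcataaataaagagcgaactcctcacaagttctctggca
Ifit1: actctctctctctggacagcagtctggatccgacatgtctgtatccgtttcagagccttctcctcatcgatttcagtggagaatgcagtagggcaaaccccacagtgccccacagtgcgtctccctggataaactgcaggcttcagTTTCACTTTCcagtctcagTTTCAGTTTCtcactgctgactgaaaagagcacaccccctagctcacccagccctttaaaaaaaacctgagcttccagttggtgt
Gbp2 has 1 match and Ifit1 has 2. These letters stood in 3.46% of all genes and in 17 of 38 matched genes of the list. They were in 4 of 16 members that rose and in 12 of 21 that were not called.

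Several chemokines that recruit leukocytes rose, with 11 of 39 cytokine and NF-kB genes higher and 1 lower. Without any 1 library 7 to 9 were higher, and in the fits of DM libraries alone 17 were higher and 6 lower. Ccl2 had 9.83 and 11.2 CPM with DMSO and 27.9 and 26.5 CPM with PFI-3 (1.37 ± 0.11, adjusted p = 5.4e-06), Cxcl1 had 16.5 and 15.1 against 41.1 and 45.8 CPM (1.46 ± 0.29), and Cxcl5 had 66.3 and 58.7 against 255 and 260 CPM (2.04 ± 0.30). Ccl5 showed the largest rise among genes of at least 5 CPM with whole-number counts, with 1.66 and 1.47 against 24.8 and 23.1 CPM (3.93 ± 1.25, adjusted p = 0.0394), but this call was lost on the FPKM scale and without any 1 library. Il6 stayed at or under 0.61 CPM. Nfkbia, the inhibitor that NF-kB induces, had 58.6 and 61.3 against 71.7 and 66.9 CPM (adjusted p = 0.182). Of the immediate early genes, 7 of 29 rose and 3 fell; 4 to 6 rose and 1 or 2 fell without any 1 library, and 8 rose and 9 fell in the fits of DM libraries alone. Egr3 fell (29.1 and 29.6 against 8.14 and 8.16 CPM, -1.85 ± 0.17), Ier3 (1.33) and Klf2 (1.09) rose, and Egr1 had 125 and 141 against 134 and 138 CPM (adjusted p = 0.948).

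A few of the 12 largest changes each way fell outside these lists. Cmklr1, the chemerin receptor, had 51.7 and 54.8 against 3.35 and 2.9 CPM (-4.09 ± 0.18, adjusted p = 6.88e-08), and Mfsd2a, a lysolipid transporter, had 28.5 and 26.7 against 4.95 and 5.11 CPM (-2.45 ± 0.21). Npr3, the natriuretic peptide clearance receptor, had 2.7 and 2.79 against 18 and 16.9 CPM (2.67 ± 0.26). Genes with near-identical copies were left out of that ranking. The extreme case, chosen after its values were seen, was Gm14430, with 28.1 and 28.6 against 0 and 0 CPM, beside Gm14308 with 1.11 and 0 against 9.36 and 10.5 CPM; their names do not tell what they encode, and how the authors' counting split reads between copies was not tested.

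The effect at 24 h was then compared with those in GM and at DM 48h through interaction contrasts, which share no library between the effects. Stage and length of exposure to PFI-3 changed together, so their parts in these differences cannot be told apart. It differed from the GM effect for 423 genes (3.37%), from the DM 48h effect for 1517 (12.1%), and from both for 153 (1.22%). In GM, 685 genes were higher (5.46%) and 771 lower (6.15%), and at DM 48h 1682 were higher (13.4%) and 1756 lower (14.0%). Leaving out 1 library lowered the interaction counts to 92 to 107 against GM and 790 to 865 against DM 48h.

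Cycle genes set the 2 differentiation times apart. At DM 48h all 73 tested genes of G2 and mitosis were called higher with PFI-3 (median 0.94), as were 61 of 66 replication genes (median 0.94), and the effect differed between the times for 71 and 55 of them. Ccna2 was 92.7 ± 1.29 CPM with DMSO and 177 ± 2.13 CPM with PFI-3 at DM 48h (mean ± SD, n = 2), a log2 fold change of 0.93, against -0.42 at 24 h (difference -1.36, adjusted p = 3.39e-05). With DMSO, its 315 and 323 CPM at 24 h compare with 372 ± 20.8 CPM in GM.

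At the median, the contractile falls were deeper at 24 h than at 48 h. The thick filament median was -1.68 at 24 h and -0.92 at DM 48h, and the thin filament median -1.32 and -0.71; the effect differed between the times for 7 of 18 and 10 of 25 genes. Actc1 had log2 fold changes of -1.60 at 24 h and -0.79 at 48 h (difference -0.82, adjusted p = 0.000235), and Myog -1.05 and -0.62 (difference -0.44, adjusted p = 0.0185). Many of these genes are near 0 counts in GM, where their effect cannot be read. In GM, 1 of 18 thick filament genes was called lower and none higher. Of 25 thin filament genes, 5 were called lower and 1 higher there. Over all genes tested in GM, the shares were 6.15% lower and 5.46% higher.

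**Figure D4:**
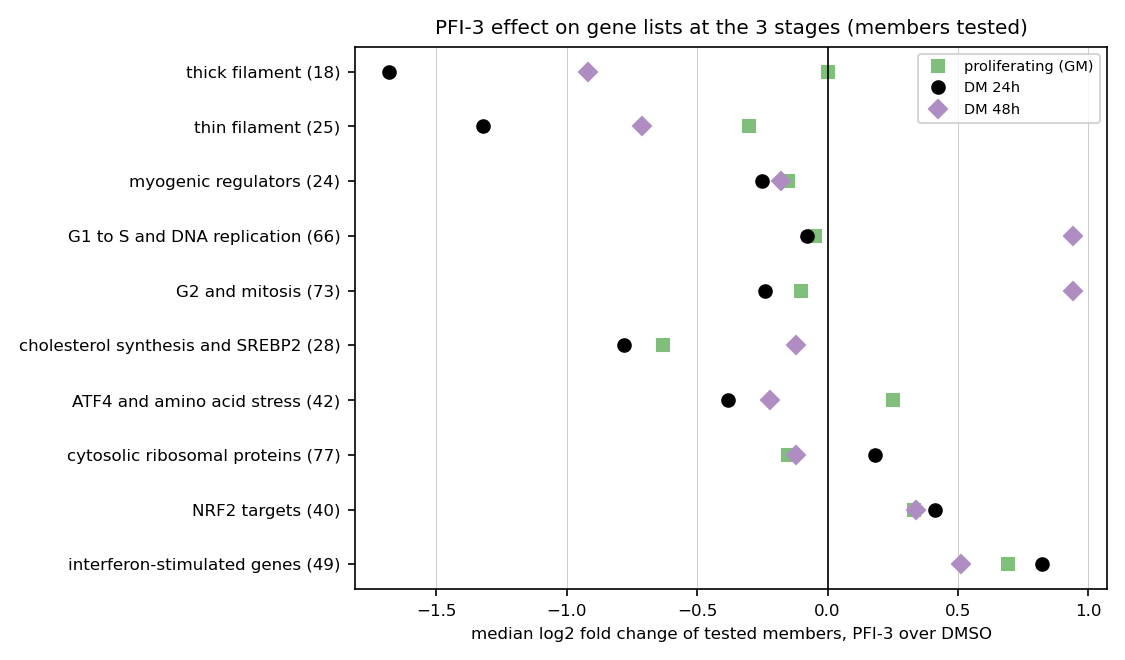
Median log2 fold change of PFI-3 over DMSO (horizontal axis) for the tested members of 10 gene lists (number in brackets) in GM (green squares), at DM 24h (black circles) and at DM 48h (purple diamonds). The G2 and mitosis list moves from -0.24 at 24 h to 0.94 at 48 h, and the ribosomal list stands above 0 only at 24 h.

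The metallothionein genes and some ribosomal protein genes rose more at 24 h than at the other stages. For Mt1 the log2 fold change was 0.29 in GM (adjusted p = 0.229), 2.02 at 24 h and 0.95 at DM 48h, and the 24 h effect exceeded the others by 1.72 (adjusted p = 0.00203) and 1.06 (adjusted p = 0.00725). For Mt2 and Slc30a1 the effects at 24 h exceeded those in GM by 1.69 and 1.98 and those at DM 48h by 1.17 and 0.87. In DMSO cells Mt1 fell on induction, from 291 ± 91.4 CPM in GM, and its level in PFI-3 cells at 24 h was above the GM means of both treatments (357 ± 2.18 CPM with PFI-3). Rps21 likewise fell on induction with DMSO, from 229 ± 22.2 to 144 and 156 CPM, and had 251 ± 3.59 CPM in GM and 243 and 245 CPM at 24 h with PFI-3 (difference from the GM effect 0.57, adjusted p = 0.0251). The 24 h effect differed from that in GM for 14 of 77 ribosomal protein genes and from that at DM 48h for 22. The list's median was -0.15 in GM and -0.12 at DM 48h, where 9 and 10 of 77 genes fell and none rose.

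Several effects were present at more than 1 stage. Col1a1 was already lower in GM (-1.51) and stayed so at DM 48h (-2.20), although the fall at 24 h was deeper than either (differences -1.16 and -0.47). Nqo1 was higher by 1.70 and 2.88, and the aryl hydrocarbon receptor list had medians of 1.67 in GM and 1.86 at DM 48h, with 8 of 11 members higher at each. The cholesterol list had medians of -0.63 in GM and -0.12 at DM 48h, where 6 and 2 of 28 genes fell; the 24 h effect was called different from the DM 48h effect for 4 of them. Atf4 was not called in GM (0.13) or at DM 48h (-0.27); its 24 h effect differed from the GM effect (-1.06, adjusted p = 0.0476) but not detectably from that at DM 48h (-0.66, adjusted p = 0.13). Fgf21 fell at DM 48h as well (-1.31), less than at 24 h (difference -3.46, adjusted p = 3.39e-05), and was near 0 counts in GM. Ccl2 rose at all 3 stages, by 0.41, 1.37 and 2.10, and the 24 h effect differed from both others.

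**Figure D5:**
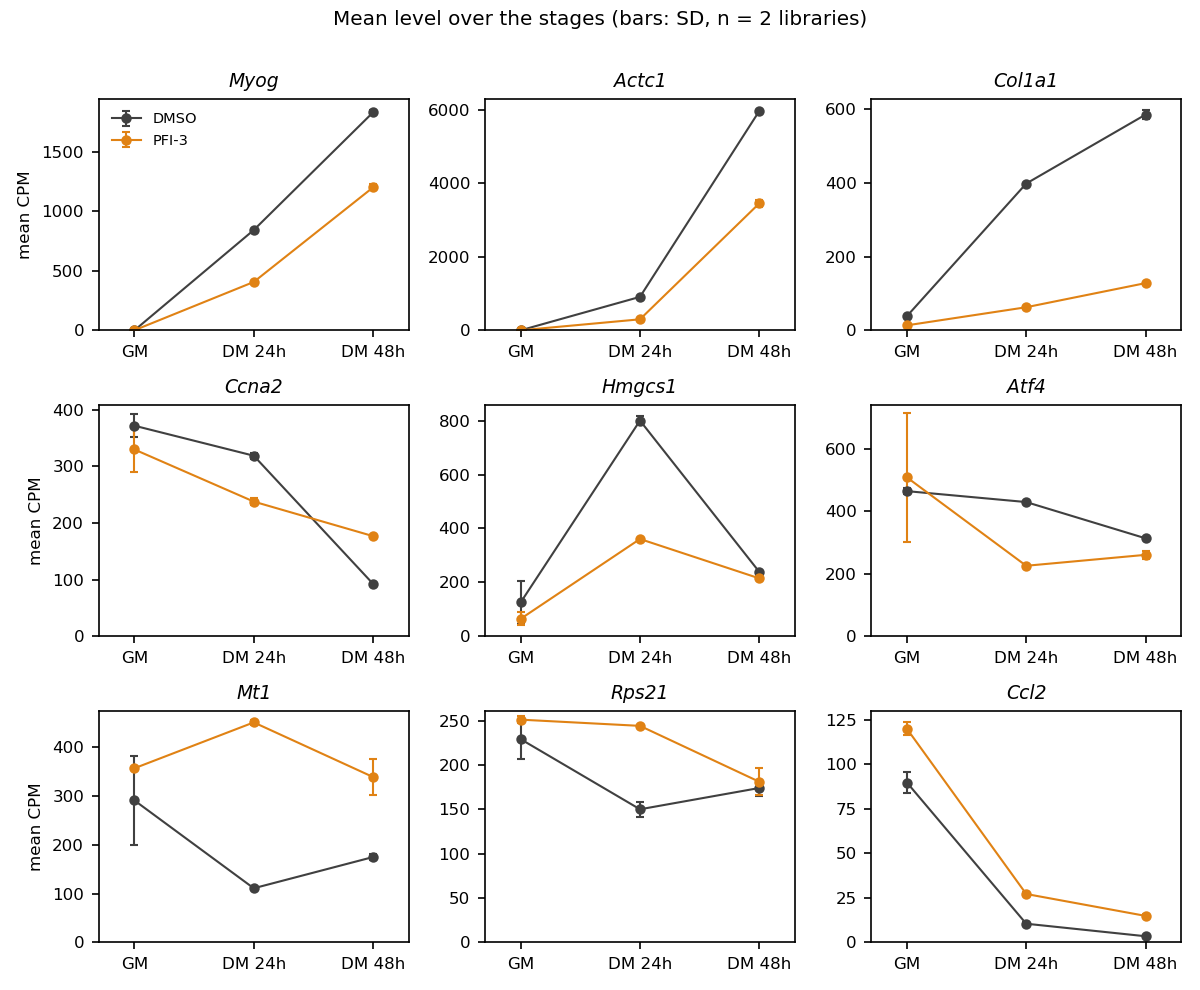
Mean CPM (vertical axes, from 0) of 9 genes across the 3 stages, with DMSO in grey and PFI-3 in orange; bars are the SD of 2 libraries. The treatments are furthest apart at 24 h for Hmgcs1, Mt1 and Rps21, and the curves of Ccna2 cross between 24 h and 48 h.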

How the data were processed

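RNA from 12 libraries was sequenced by the submitters' provider. Per the file headers, each deposited table gives expected counts and FPKM (fragments scaled for transcript length and library total) per gene; the submitters' processing notes name HISAT, StringTie, Cufflinks, Bowtie, RSEM, DESeq2 and mm10, with no roles or versions. Expected counts were rounded, a gene absent from a table was set to 0, and all 12 libraries in 6 groups were fitted with edgeR 4.0.16 (TMM, filterByExpr, quasi-likelihood test, Benjamini-Hochberg over 12545 genes, called at an adjusted p under 0.05). SE is the log2 fold change over the root of the F statistic. Alternatives used DESeq2 1.42.0, limma 3.58.1 on log2(FPKM + 1) and log2(FPKM + 0.1), whose folds understate changes of low genes, other filters, other sets of libraries and leaving out each library. The fit was tested on simulated data (200 genes above a minimum mean count changed 2-fold: 86.5% recovered, 6% of calls false). The comparison, its members and the gene lists were chosen with earlier results of these data known. Named genes are each list's core genes, its 3 largest called changes each way, and the 12 largest each way over all genes with at least 5 CPM and whole-number counts in at least 3 of the 4 libraries, with 1 sign in both same-letter pairs. Depth was 12576374 to 13658352 expected counts per library.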

Additional observations from a re-analysis of the deposited data

Results flagged for a closer look

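Of 161 genes described above, 39 had an effect of PFI-3 at 24 h that differed from the effect in proliferating cells (GM), and 64 differed from the effect at DM 48h, by edgeR's interaction contrast at an adjusted p under 0.05. Over all genes tested, the shares were 3.37% and 12.1%. Many of the described genes were named for a large called change at 24 h, which by itself raises their share. The values below are the log2 fold change at 24 h minus that at the other stage, and 24 genes appear in both comparisons. Over all genes, the number of such calls fell from 423 to between 92 and 107 against GM, and from 1517 to between 790 and 865 against DM 48h, when 1 library was left out. What lies behind the differences was not tested.

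Of the differences from GM, 9 belong to genes under 5 CPM in both GM groups: Myog (-2.31), Myh3 (-2.45), Actc1 (-1.61), Tnni1 (-4.74), Myom2 (-1.70), Mymk (-2.00), Dll1 (-1.42), Cdkn1c (-1.30) and Mmp9 (2.94). For those nearest 0 in GM, the value depends on a handful of counts and on the prior count of the fit. The highest of them in GM were Dll1 (mean 2.46 CPM with DMSO and 4.35 with PFI-3) and Cdkn1c (3.16 and 2.19).

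Among genes of at least 5 CPM in a GM group, the zinc genes differed by 1.72 for Mt1, 1.69 for Mt2, 1.98 for Slc30a1 and -0.98 for Slc39a10. The ribosomal protein genes differed by 0.43 for Rps20, 0.57 for Rps21 and 0.57 for Rplp0. Genes of lipid metabolism differed by -0.73 for Acaca, -1.39 for Scd1, 0.86 for Cpt1a and 2.73 for Angptl4. Regulators and cycle genes differed by 1.85 for Id3, -0.84 for Rb1, 0.83 for Ccnd2, -1.07 for Egr3, -1.06 for Atf4 and -1.14 for Ahr. Matrix and membrane genes differed by -1.16 for Col1a1, -1.86 for Col5a3, 0.63 for Lamb2, 1.57 for Itgb7 and 0.80 for Sntb2. Signalling genes differed by 0.96 for Ccl2, 1.75 for Cxcl5, 0.74 for Nfkbia, 0.97 for Grem1 and 2.34 for Npr3. The remaining values were -1.04 for Slc7a1, -0.42 for Psmd1 and -0.42 for Psmd14.

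Against DM 48h, the contractile and coupling genes were further below their controls at 24 h: Myh3 (-1.06), Myl4 (-0.63), Mybph (-0.97), Actc1 (-0.82), Acta1 (-0.82), Tnnc1 (-0.93), Tnni1 (-0.71), Ttn (-0.90), Actn2 (-0.95), Myom2 (-0.98), Smyd1 (-1.04), Casq2 (-1.59), Cacna1s (-1.46), Trim72 (-0.85) and Sntb1 (-0.65). Cacnb3 differed the other way (0.51). Regulators, fusion and Notch genes differed by -0.44 for Myog, -0.67 for Mef2a, -0.78 for Mymk, -0.57 for Cdh15, -0.47 for Itga7, -0.47 for Dll1, -0.62 for Hes1, -0.61 for Id1 and 1.00 for Id3.

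The cycle genes, whose effects pointed in opposite directions or were near 0 at 24 h and positive at 48 h, differed by -1.36 for Ccna2, -1.34 for Mki67, -1.42 for Melk, -0.93 for Cdk1 and -0.91 for Pcna. The inhibitor Cdkn1b differed by 0.63 and Rb1 by -0.43. Of the genes for PFI-3's own targets, Smarca4 differed by -0.39: it was not called at 24 h (-0.05) and rose at DM 48h (0.34).

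Metabolic and stress genes differed from DM 48h by -0.72 for Acaca, -0.68 for Fasn, 0.61 for Cpt1a, 1.36 for Hk2, 0.95 for Ampd3, -3.46 for Fgf21, -0.88 for Slc7a1, -0.34 for Slc7a11, 1.66 for Vldlr, -0.42 for Hspa5 and -0.37 for Txnrd1. The zinc genes differed by 1.06 for Mt1, 1.17 for Mt2, 0.87 for Slc30a1 and -0.63 for Slc39a10, and the protein turnover genes by 0.61 for Rps20, 0.64 for Rps21, 0.28 for Rplp0 and -0.37 for Psmd1. Secreted, matrix and signalling genes differed by -0.88 for Igf2, -1.12 for Igfbp2, 0.76 for Fst, -0.47 for Col1a1, -1.20 for Col5a3, -2.00 for Fmod, -1.15 for Cmklr1, -0.73 for Ccl2, 2.71 for Ifit1, -0.95 for Egr3, 1.49 for Ier3 and 0.87 for Klf2.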

How the results depend on the processing

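The number of genes called at 24 h was 5583 when only the 4 DM 24h libraries were fitted, 5525 with the 8 DM libraries and 5719 with the 4 libraries and the replicate block, against 2966. It was 1320 to 1469 when 1 library was left out (1335 without DMSO A, 1397 without DMSO B, 1320 without PFI-3 A and 1469 without PFI-3 B). The replicate block, which takes the letters A and B as a paired factor over all 12 libraries, gave 3040, of which 2877 were shared; same-letter deviations correlated at 0.014 in DM 24h, 0.472 in GM and 0.032 in DM 48h over 10656 genes, and the labels do not say what the letters mark. The count of called genes of at least 2-fold was 573, and 262 on log2(FPKM + 1), a scale that shrinks the folds of low genes. Differences from the GM effect numbered 423, or 92 to 107 without 1 library. Differences from the DM 48h effect numbered 1517, 4154 with the 8 DM libraries, and 790 to 865 without 1 library. Genes called both in the fit reported above and in an alternative kept their sign in all 14 alternatives. The alternatives used the same DM 24h libraries or all but 1 of them, so this could hardly have come out otherwise. In 4 classes by transcript length, added after the data were seen, medians lay between -0.025 and 0.024. With 2 libraries a group, 86.5% of 200 simulated 2-fold changes were recovered in a fit of 12545 genes. The changed genes were drawn only from those above a minimum mean count, so the rate does not cover low genes. They were also far fewer than the genes called here. Smaller changes, and changes in low genes, may be missed.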
